A study of Mus musculus with 32 samples.

Results

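This account compares 2 short hairpin RNAs (shRNAs) against the same gene, Zbtb9, late in fat cell differentiation. It rests on 8 of 32 RNA-seq libraries of 3T3-L1, a mouse preadipocyte line that fills with fat after hormone treatment. They are 4 libraries of shRNA #2 and 4 of shRNA #1, with 2 of each at day 7 and 2 at day 11, chosen by their labels. At day 0 all cells, controls included, received 1 μM dexamethasone, 0.5 mM isobutylmethylxanthine and 167 nM insulin. Insulin alone followed from day 3, and medium without hormones from day 7. Both compared groups are labelled as carrying a hairpin against Zbtb9, and 8 libraries of a scramble hairpin on the same 2 days serve as control. The labels do not say how the hairpins were delivered or whether a line was a pool or 1 clone. They call replicates biological without naming separate cultures, so p-values measure the spread between these libraries only.

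Zbtb9 encodes a protein with a BTB domain and zinc fingers, a class of mostly DNA-binding regulators. An shRNA is processed into a small RNA that guides the silencing machinery to a matching transcript. 2 hairpins with different sequences share the intended target but can differ in unintended ones. In the interferon system, sensors such as Ifih1 and Ddx58 detect RNA, factors such as Irf7, Irf9 and Stat2 switch on genes, and effectors such as the Ifit and Oas proteins block viral RNA.

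The deposited values are log2 levels that were drawn towards each gene's mean, so differences of rare genes are understated. Differences below are shRNA #2 minus shRNA #1 on that log2 scale, and read numbers are reads rebuilt from the values and divided by the library's size factor. The 8 libraries held 22839508 to 27158079 reads in genes. Adipocyte markers matched the labelled cell type: their summed reads were 191900 to 290300 at day 7 and 138600 to 167800 at day 11 in the shRNA libraries, against 64060 to 75850 in day 11 controls. Endothelial markers summed to at most 77.61 reads in the shRNA libraries. Keratins and epithelial markers summed at day 7 to 983.7 to 1018 reads with shRNA #1 and 268.5 to 368.2 with shRNA #2. Both were above the controls, which had 51.96 to 126.9.

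The targeted gene was examined first. Zbtb9 (ENSMUSG00000079605) was rare: the shRNA #1 libraries had 6.09 and 9.28 normalized reads at day 7 and 8.17 and 19.3 at day 11. The shRNA #2 libraries had 8.39 and 4.87 at day 7 and 2.13 and 4.25 at day 11. At day 7 the arms overlapped, and every library of both lay below the controls, which had 12.7 to 22.3. At day 11 both shRNA #2 libraries lay lower than those of shRNA #1. There 1 shRNA #1 library lay below the control range of 12.1 to 20 and the other within it. The difference was -0.23 over both days and did not pass a two-sided exact permutation test within days (p = 0.111, smallest possible 0.0556). Against control the gene was at -0.20 with shRNA #1 (limma adjusted p = 0.12) and at -0.43 with shRNA #2 (limma adjusted p = 0.00226), and both values use the same 8 control libraries. It stood below the level filter of the 8-library fit. In the fit with controls it passed the filter through the control libraries, where it was higher. These 2 adjusted p-values therefore give no independent support for a knockdown of the gene. In GRCm38, 84.4% of its exon bases are shared with exons of other genes, so its reads are uncertain.

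Across the genome, 2882 of 13309 genes tested (21.7%) differed between the shRNAs over both days at a limma adjusted p under 0.05, which is the meaning of "called" here. Of these, 1390 (10.4%) were higher with shRNA #2 and 1492 (11.2%) were lower. Few differences were large: 52 called genes (0.391%) differed by at least 1 on the log2 scale, and the median absolute difference was 0.12. Replicates of 1 group differed by a median of 0.083 to 0.112. That compares single libraries, which spread more than the means of 4 libraries behind the 0.12. The share of calls that were higher was 48.2% as deposited. It was 58.8% with libraries rescaled to the same total and 43.3% with libraries centred on their median, so the balance of small differences depends on the scaling. Within days, 1402 genes (10.5%) were called at day 7 and 2727 (20.5%) at day 11, of which 787 were called on both days and 779 of those in the same direction. On each autosome and chromosome X the share called lay between 18% and 26.4%.

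The largest rises and falls were taken among called genes whose arms did not overlap on either day, a condition that 14.3% of all genes met upward and 16.1% downward. Of the 12 rises, 9 were on the interferon list, and the first was Pi15, a secreted protein related to protease inhibitors. Pi15 (ENSMUSG00000067780, chromosome 1) had 262.8 and 218.1 reads with shRNA #1 at day 7 and 163.4 and 69.27 at day 11. With shRNA #2 it had 1210 and 755.9 at day 7 and 1347 and 826.8 at day 11. All 4 shRNA #2 libraries were above all 4 of shRNA #1, a difference of 2.42 (SE 0.38, limma adjusted p = 0.00897). Controls had 1536 to 2368 reads at day 7 and 805.4 to 1402 at day 11, so both arms were below control at day 7, while at day 11 shRNA #1 was below it and shRNA #2 within its range. Aatk, a kinase gene first found in dying myeloid cells, went the other way from control. Aatk had 74.08, 47.56, 64.33 and 17.03 reads with shRNA #1, 196.2, 248.4, 149.9 and 120.1 with shRNA #2, and at most 36.51 in controls. Both arms were above control at day 7, and 1 shRNA #1 library was within the control range at day 11. The difference was 1.42 (SE 0.23, limma adjusted p = 0.00225).

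**Figure D1:**
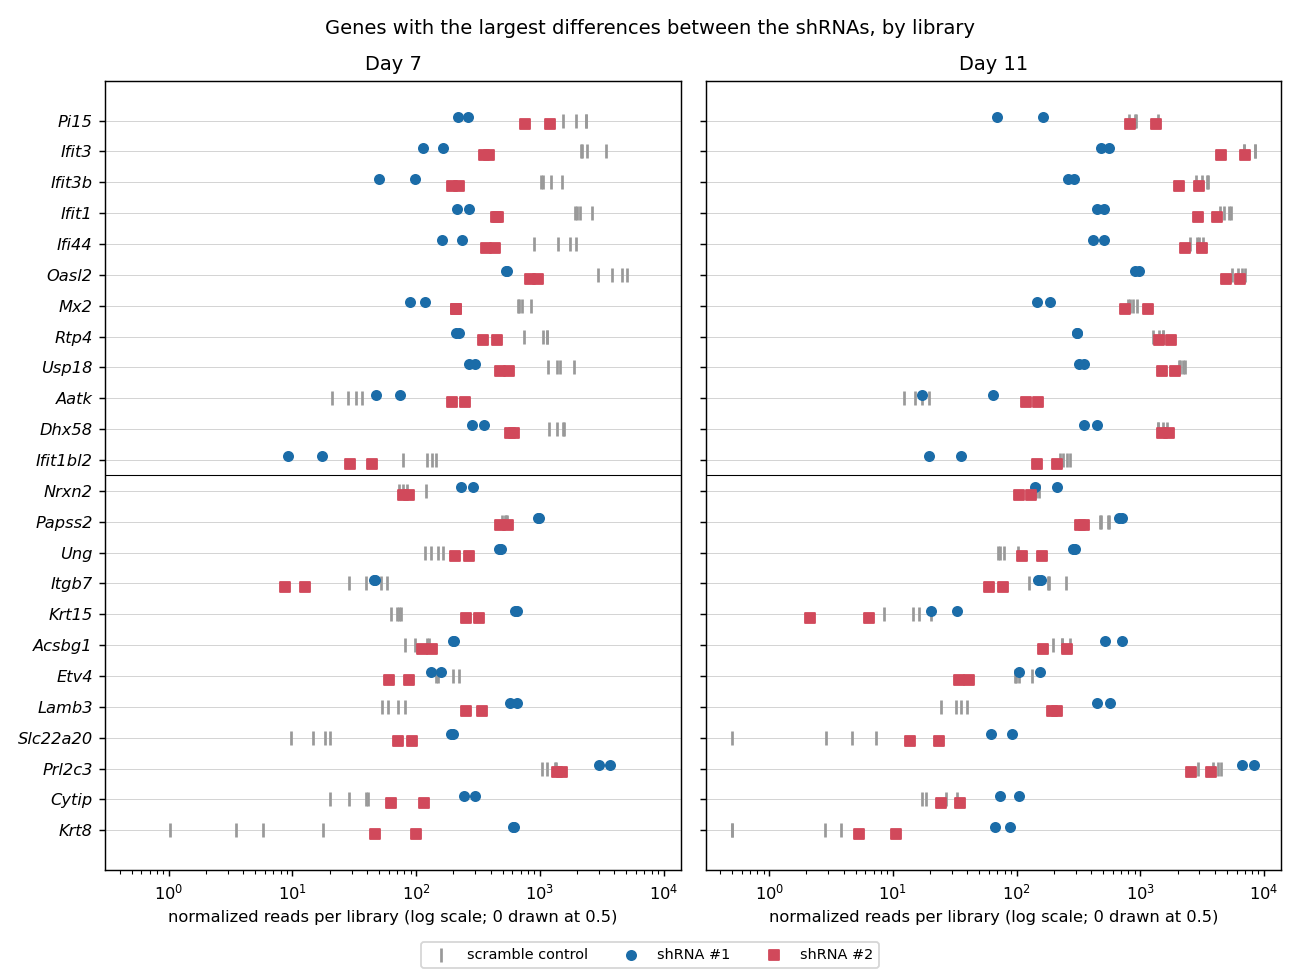
Normalized reads per library (log axis) of the 12 genes with the largest rises (above the line) and the 12 with the largest falls (below it) in shRNA #2 against shRNA #1, at day 7 (left) and day 11 (right). Blue circles are shRNA #1, red squares shRNA #2 and grey ticks scramble control, and the genes were chosen so that red and blue symbols do not overlap on either day.

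Genes of the interferon response were higher with shRNA #2. At day 11 all 34 tested genes were higher with shRNA #2 (10.6% of all genes were called higher there), and the median difference was 1.59 against -0.01 over all genes. At day 7, where 4.54% of all genes were called higher, 18 of 34 were called, with a median of 0.44. Over both days 24 of 34 were called higher (10.4% of all genes) and none lower. The list was chosen with earlier results of these data known, so its direction is not independent evidence. The promoters of Ifit3 and Ifit1 are shown because they held a match to the motif below. The same search of Oasl2, Usp18, Ifi44, Mx2, Rtp4 and Dhx58 gave no match or found no window. Each line gives the 250 bases before the RefSeq start (GRCm38.p6) of Ifit3 (chr19:34583279-34583528, plus strand) or Ifit1 (chr19:34640639-34640888, plus strand), with matches to GAAA, any 2 bases and GAAA, the core of the interferon-stimulated response element, on either strand in capitals.
Ifit3: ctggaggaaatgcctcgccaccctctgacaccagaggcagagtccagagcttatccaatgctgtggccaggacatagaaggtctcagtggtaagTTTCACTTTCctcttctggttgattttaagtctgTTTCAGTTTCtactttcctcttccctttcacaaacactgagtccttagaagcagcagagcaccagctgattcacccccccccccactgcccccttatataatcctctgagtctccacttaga
Ifit1: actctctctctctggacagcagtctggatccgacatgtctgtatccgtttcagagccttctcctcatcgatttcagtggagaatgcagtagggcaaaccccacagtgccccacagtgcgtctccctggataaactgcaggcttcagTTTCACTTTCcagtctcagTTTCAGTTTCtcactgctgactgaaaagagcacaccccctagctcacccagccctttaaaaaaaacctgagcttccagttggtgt
Each window held 2 matches, which begin 156 and 122 bases before the start in Ifit3 and 104 and 85 bases before it in Ifit1. Of the 25 list genes with a RefSeq window, 14 (56.0%) held the motif, against 319 of 9977 genes tested (3.20%). A match is a description of the letters and not evidence of binding.

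Among the effectors, Ifit3 (ENSMUSG00000074896, chromosome 19), which helps Ifit1 hold foreign RNA, had 165.4 and 113.7 reads with shRNA #1 and 390.2 and 356.5 with shRNA #2 at day 7. At day 11 it had 553.5 and 484.9 with shRNA #1 and 7021 and 4478 with shRNA #2. The arms did not overlap on either day, and the fold between them was 2.68 at day 7 and 11.1 at day 11. Ifit1, which binds RNA without a host cap mark, had 509.6 and 448.5 reads with shRNA #1 at day 11 against 4184 and 2933 with shRNA #2, a difference of 2.75 (limma adjusted p = 7.64e-08). Ifit3b, a near-identical copy of Ifit3 that could share its reads, differed by 3.02 at day 11. Mx2, a GTPase of the antiviral dynamin family, had 147 and 187.4 reads against 1163 and 756.7 at day 11, and Oasl2, an oligoadenylate synthetase relative, had 908.8 and 972 against 6358 and 4976. Usp18, which removes Isg15 from proteins and damps interferon signalling, differed by 2.2 at day 11, and Dhx58, a relative of the RNA sensors, by 1.90.

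Sensors and transcription factors were higher too. At day 11 Ifih1 differed by 1.16 and Ddx58 by 1.00, both called. Irf7 differed by 1.88, Stat2 by 1.38 and Irf9 by 0.98 at day 11, all called. At day 7 Irf7 (0.77), Stat2 (0.61) and Irf9 (0.38) were called as well. Oas2 and Oas3, which make the messenger that activates RNase L, were not called at day 7 (-0.40 and -0.37). At day 11 they were 1.70 and 1.61 higher, with 53.1 and 87.44 reads of Oas2 with shRNA #1 against 350.9 and 217.9 with shRNA #2. The difference between the days itself passed the test for 250 of all genes (1.88%) and for 29 of 34 interferon genes (1.28% of all genes passed in that direction), with a median of 1.19.

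**Figure D2:**
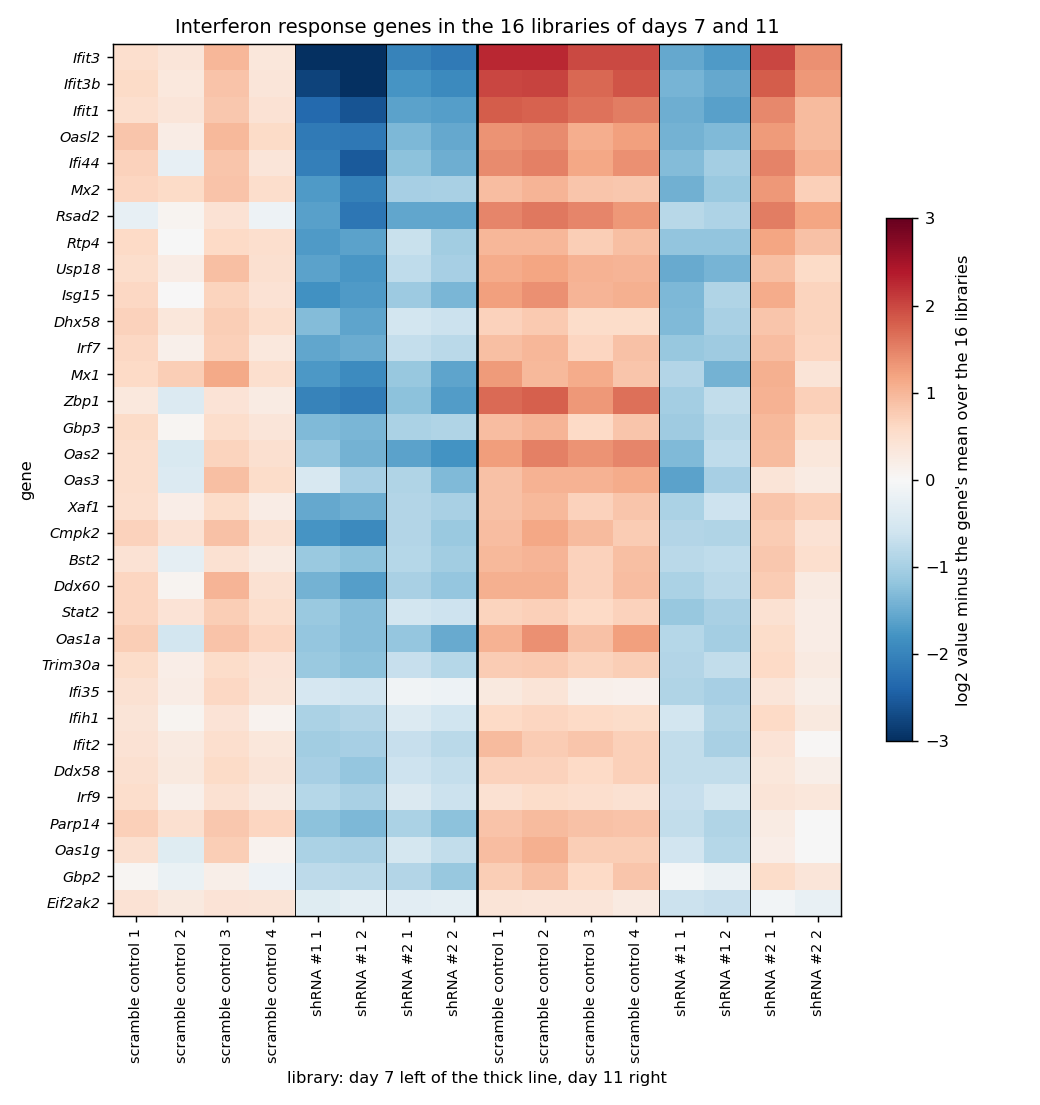
Log2 value of 33 interferon response genes (rows) in the 16 libraries of days 7 and 11 (columns), minus the gene's mean over those libraries, with red above and blue below that mean. All 4 shRNA libraries of day 7 and both shRNA #1 libraries of day 11 are mostly blue, and both shRNA #2 libraries of day 11 are mostly red, as are the controls.

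Set against control, the interferon genes were low in both arms at day 7 and in shRNA #1 at day 11. The median of the list against the control mean was -1.80 and -1.90 in the shRNA #1 libraries at day 7 and -1.29 and -1.49 in those of shRNA #2. At day 11 it was -1.92 and -1.85 with shRNA #1 and -0.12 and -0.48 with shRNA #2. Both shRNA #2 libraries lay below every control for 34 of 34 genes at day 7 (27.7% of all genes) and for 16 at day 11 (28.1%). Both shRNA #1 libraries did so for 34 genes on each day (29.6% of all genes at day 7 and 29% at day 11). The same controls enter both comparisons. Without shRNA #2 day 11 replicate 2 or shRNA #1 day 11 replicate 2, the count called over both days was 12 and 13 in place of 24, and with the replicate block it was 12. The day 11 count was 33 or 34 in every fit that left out 1 library. The day 7 count was 8 without shRNA #2 day 7 replicate 1 and 9 without shRNA #1 day 7 replicate 2, and the count between days was 15 without shRNA #2 day 7 replicate 2 and 19 without shRNA #1 day 7 replicate 1. Leukocyte markers, defining genes of cells that could respond to interferon, summed to 911.9 to 1071 reads with shRNA #1 and 954.7 to 973.4 with shRNA #2 at day 11. Controls had 743.1 to 843.7. Of the 8 markers only Fcer1g was at 0 in both shRNA #1 libraries, and only Fcer1g and Itgam in both of shRNA #2.

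The genes that load peptides on MHC class I, a surface display that interferon raises, moved the same way at day 11. There 18 of 19 tested were higher with shRNA #2 (median 0.70; 10.6% of all genes). At day 7 1 was called higher (median 0.07; 4.54% of all genes), and none without any 1 of the day 7 libraries or of the shRNA #2 day 11 libraries. Over both days 7 were called (median 0.36; 10.4% of all genes). The count over both days was 4 without shRNA #1 day 11 replicate 1 and 3 without shRNA #2 day 11 replicate 2, and the median was 0.23 without shRNA #2 day 11 replicate 1. Tapbp, which holds empty MHC class I at the peptide transporter, had 9734 and 8201 reads with shRNA #1 and 15390 and 14560 with shRNA #2 at day 11. Its difference over both days was 0.48 (SE 0.09, limma adjusted p = 0.00615), and it shares 29% of its exon bases with other genes. The transporter subunit Tap1 (1.23), the immunoproteasome subunits Psmb9 (1.41) and Psmb8 (1.05) and the light chain B2m (0.77) were higher at day 11. Cxcl10, a chemokine induced by interferon, had 30.64 and 38.61 reads with shRNA #1 and 199.9 and 129.7 with shRNA #2 at day 11. Over both days it differed by 1.05 (limma adjusted p = 0.00919), and 5 of 19 chemokine and inflammatory genes were called higher and 1 lower (10.4% and 11.2% of all genes).

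Genes of mitosis were lower with shRNA #2 at day 11. There 25 of 30 were lower with shRNA #2 (9.92% of all genes were called lower), with a median of -0.69, while at day 7 none was called and the median was 0.21 (0.33 and 0.13 without replicate 1 and 2 of shRNA #2 at day 7). The difference between the days passed for 18 of 30 (0.601% of all genes passed in that direction, median -0.86). Mki67, a marker of cycling cells, had 1550 and 1484 reads with shRNA #1 and 1579 and 2054 with shRNA #2 at day 7. At day 11 it had 210.4 and 218 against 76.55 and 99.9, a difference of -1.07 (limma adjusted p = 2.17e-05), with controls at 153.7 to 202.5. Ccnb1, the cyclin that drives entry into mitosis, had 121.5 and 130.6 reads with shRNA #1 and 44.65 and 43.57 with shRNA #2 at day 11. Both shRNA #2 libraries lay below all controls there (104.9 to 133.4).

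Also lower at day 11 were Kif23, a kinesin of the dividing cell's midzone (-1.09 at day 11), Knstrn, a spindle protein (-1.20), and Cit, a kinase of cell separation (-1.28). Over both days 1 mitosis gene was called, Mad2l1 of the spindle checkpoint (-0.34), which was lost in 5 of the 8 fits that left out 1 library. Without 1 of the day 7 libraries the count between days was 6 to 11 (shRNA #1 replicates 1 and 2 gave 8 each, shRNA #2 replicates 1 and 2 gave 11 and 6), and Cit was no longer called between days (highest adjusted p 0.0938). Of 28 DNA replication genes, 27 were lower at days 0 and 3 together (15.8% of all genes), 12 at day 11 (9.92%) and none at day 7. Over both days 2 were called, both lower, beside 11.2% of all genes: Ccne2, a cyclin of S phase entry (-0.48), and the helicase subunit Mcm3 (-0.44). Mcm3 was not called when libraries were rescaled to the same total (limma adjusted p = 0.0514), nor without shRNA #1 day 11 replicate 1 or 2 or shRNA #2 day 11 replicate 2 (0.0975, 0.055 and 0.106). A drop in cycling cells and a drop per cell cannot be told apart in bulk RNA.

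**Figure D3:**
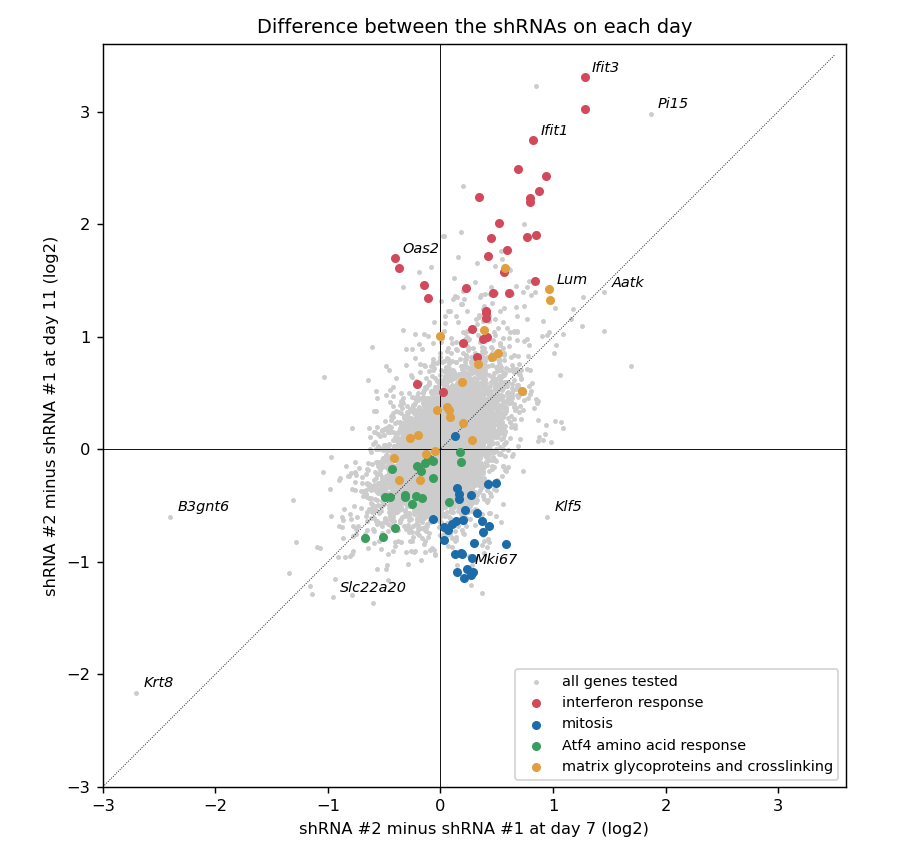
Difference of each of 13309 genes at day 7 (x axis) and day 11 (y axis), shRNA #2 minus shRNA #1 in log2, with 4 gene lists in colour and the dotted line where both days are equal. All 34 interferon genes lie above the line, up to 3.30 at day 11 for Ifit3, 29 of 30 mitosis genes lie below 0 on the y axis, and Krt8 lies at -2.70 and -2.16.

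The largest fall belonged to Krt8, the type II keratin of simple epithelia (ENSMUSG00000049382, chromosome 15). It had 621 and 604.4 reads with shRNA #1 and 46.15 and 100.3 with shRNA #2 at day 7, and 88.84 and 67 against 10.63 and 5.314 at day 11. Controls had 1.014 to 17.71 at day 7 and at most 3.801 at day 11, so both arms stood above control at day 7 and shRNA #1 by far the most. The difference was -2.43 (SE 0.20, limma adjusted p = 2.31e-05). Krt15, a keratin of basal epithelium, had 634.2 and 649.6 reads against 252.8 and 323.4 at day 7 (-0.98 over both days, limma adjusted p = 0.000172). Krt19 differed by -0.55 (limma adjusted p = 0.00505), and 3 of the 4 tested keratins and epithelial markers were lower (11.2% of all genes). The summed reads of that list at day 7 were 983.7 to 1018 with shRNA #1, 268.5 to 368.2 with shRNA #2 and 51.96 to 126.9 in controls. Cdh1 and Epcam, defining genes of epithelium, were at 0 in both day 7 libraries of shRNA #1, but no member of the list was at 0 in both at day 11.

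Among the further large falls, Lamb3, a laminin chain of epithelial basement membranes, had 655.5 and 568.4 reads with shRNA #1 and 251.7 and 341 with shRNA #2 at day 7, and 566.8 and 442.9 against 210.5 and 194.5 at day 11. Both arms were above control, where the highest library had 80.6, and the difference was -1.04 (SE 0.11, limma adjusted p = 4.34e-05). Papss2, which makes the sulfate donor for proteoglycans, differed by -0.91 (SE 0.07, limma adjusted p = 3.07e-06). Ung, a DNA repair enzyme that removes uracil, differed by -0.93, and Cytip, a regulator of cell adhesion, by -1.22. Etv4, an ETS transcription factor, was at -1.04 and Itgb7, an integrin chain, at -0.97. Against control these last 2 were at -1.06 (Etv4) and -1.04 (Itgb7) with shRNA #2 and at -0.02 and -0.07 with shRNA #1 (limma adjusted p = 0.915 and 0.688). Prl2c3, a placental hormone relative at -1.19, belongs to a family of near-identical copies, and its reads are uncertain. Of the 24 genes with the largest rises and falls, 16 were called in every fit that left out 1 library and 8 were not, all of them interferon genes: Ifit3, Ifit3b, Ifit1, Ifi44, Oasl2, Mx2, Rtp4 and Usp18. All 8 were lost without shRNA #1 day 11 replicate 2 and without shRNA #2 day 11 replicate 2. With the replicate number as a block all 8 were lost as well.

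Genes of amino acid supply, targets of the stress factor Atf4, were lower with shRNA #2 on both days. Of 20 tested, 15 were lower over both days (11.2% of all genes) and none higher, with a median of -0.30. At day 7 10 were lower (median -0.21; 6.0% of all genes were called lower) and at day 11 13 (median -0.41; 9.92% of all genes). The day 7 count was 5 without shRNA #1 replicate 2 and 6 without each other day 7 library. The promoters of 2 targets are printed because they held the letters of the Atf4 element, TGATGNAA on either strand. Chac1 also held a match. The same search of Shmt2, Psat1, Phgdh, Trib3, Mthfd2 and Sesn2 gave no match or found no window. Printed are the 250 bases before the RefSeq start (GRCm38.p6) of Asns (chr6:7693210-7693459, minus strand) and Slc7a11 (chr3:50443614-50443863, minus strand), with matches in capitals.
Asns: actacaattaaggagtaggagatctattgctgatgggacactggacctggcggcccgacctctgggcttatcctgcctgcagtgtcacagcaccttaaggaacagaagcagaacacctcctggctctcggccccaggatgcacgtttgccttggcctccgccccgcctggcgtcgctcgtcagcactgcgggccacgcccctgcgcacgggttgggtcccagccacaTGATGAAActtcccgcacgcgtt
Slc7a11: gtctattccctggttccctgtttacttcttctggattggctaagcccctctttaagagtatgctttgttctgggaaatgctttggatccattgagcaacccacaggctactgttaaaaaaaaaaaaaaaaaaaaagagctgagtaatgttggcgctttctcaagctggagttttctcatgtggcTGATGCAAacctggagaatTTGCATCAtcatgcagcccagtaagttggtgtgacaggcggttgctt
Asns held 1 match, 23 bases before the start, and Slc7a11 held 2, at 66 and 47 bases. Of 18 list genes with a window, 6 (33.3%) held the element, against 235 of 9977 genes tested (2.36%).

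Shmt2, which makes 1-carbon units in mitochondria, had 3053 and 3046 reads with shRNA #1 and 1915 and 1854 with shRNA #2 at day 7, and 3357 and 3972 against 2105 and 2024 at day 11. The arms were well apart on both days, and the difference was -0.73 (SE 0.06, limma adjusted p = 3.07e-06). Slc7a11, the cystine importer, had 315.6 and 303.9 against 249.7 and 175.3 at day 7 and 776.1 and 863 against 488 and 434.7 at day 11 (-0.64, limma adjusted p = 0.000659). Both arms were below control for Slc7a11 at day 11, where controls had 1274 to 2058 reads, unlike the list as a whole. The list's median against the control mean was 0.37 and 0.42 in the shRNA #1 libraries at day 7 and 0.19 and 0.22 at day 11. With shRNA #2 it was 0.16 in both at day 7 and -0.17 and -0.07 at day 11. The serine synthesis genes Psat1 (-0.55) and Phgdh (-0.46) and the asparagine synthase Asns (-0.36) were lower, and Atf4 itself stood at -0.16, also called. Ddit3 (-0.09) and Sesn2 (0.04) were not called. Bcat1, which starts the breakdown of branched-chain amino acids, was lower by the same test (-0.71, limma adjusted p = 0.000104).

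Several antioxidant genes were lower as well. Hmox1, the heme-degrading enzyme, had 13080 and 13750 reads with shRNA #1 and 7580 and 7721 with shRNA #2 at day 7. At day 11 it had 42170 and 49460 against 22680 and 24300, with controls at 14790 to 20650. The difference was -0.86 (SE 0.06, limma adjusted p = 1.74e-06). Of 19 antioxidant genes 8 were lower and 2 higher, beside 11.2% and 10.4% of all genes, among them Gclm (-0.63) and Nqo1 (-0.38) lower and Sod3 (0.37) higher. The lower count was 5 without shRNA #1 day 7 replicate 2, shRNA #2 day 7 replicate 2 or shRNA #2 day 11 replicate 2. Without the last of these Sod3 was not called (limma adjusted p = 0.0542) and the higher count was 1, and it was 3 without shRNA #1 day 7 replicate 2. Cytosolic ribosomal protein genes differed by little and in 1 direction: 11 of 24 were lower (11.2% of all genes) and none higher, with a median of -0.17. That count was 6 or 7 in 4 of the 8 fits that left out 1 library (without shRNA #1 day 7 replicate 2, shRNA #2 day 7 replicate 2 and shRNA #2 day 11 replicates 1 and 2), and 7 with libraries rescaled to the same total.

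**Figure D4:**
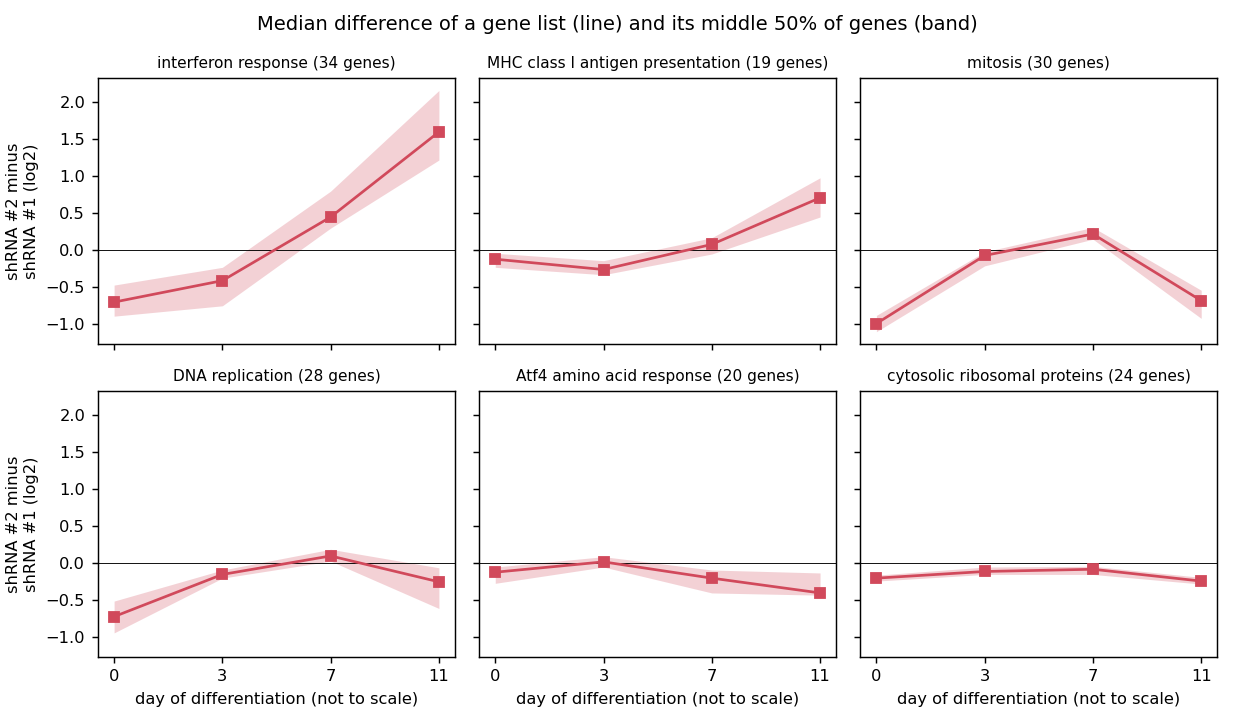
Median difference, shRNA #2 minus shRNA #1 in log2, of 6 gene lists on days 0, 3, 7 and 11 (line), with the band holding the middle 50% of their genes. The interferon median goes from -0.71 at day 0 to 1.59 at day 11, the mitosis median is above 0 on day 7 alone (0.21), and ribosomal protein genes stay between -0.25 and -0.09.

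For the interferon genes the late and early differences had opposite signs. At days 0 and 3 together, 30 of the 34 were lower with shRNA #2 (15.8% of all genes were called lower there). The change from the early to the late difference passed the test for all 34 (8.77% of all genes passed in either direction, 4.34% upward). Their median difference was -0.71 on day 0 and -0.42 on day 3, before turning positive. Ifit1 changed from early to late by 2.87 (limma adjusted p = 2.46e-06). Of all genes 4.43% passed downward, and the upward share of calls was 49.5% as deposited and 64.4% with libraries rescaled to the same total. Krt8 changed by -2.36 (limma adjusted p = 3.56e-07), from an early difference of -0.07. Col12a1, a collagen found on the surface of fibrils, went from 0.44 to -0.61, a change of -1.06 (limma adjusted p = 3.02e-09). Ccnd3, a cyclin raised in differentiating cells, kept its difference: 0.65 early and 0.63 late, with a change of -0.02 (limma adjusted p = 0.888).

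Of 18 adipocyte markers tested, 3 were higher with shRNA #2 and 4 lower over both days, with a median of -0.08, beside 10.4% and 11.2% of all genes. The lower count was 2 without shRNA #1 day 7 replicate 2, shRNA #1 day 11 replicate 1 or shRNA #2 day 11 replicate 2, and the median ran from -0.19 to 0.01 with 1 library left out. Gpd1, which makes the glycerol backbone of triglyceride, had 1806 and 1980 reads with shRNA #1 and 3790 and 4525 with shRNA #2 at day 7, and 2279 and 1574 against 4090 and 3861 at day 11. The difference was 1.06 (SE 0.11, limma adjusted p = 0.000282), and both arms stood above control, which had at most 1079. Cd36, a fatty acid receptor, had 2711 and 3233 against 4888 and 5437 at day 7 (0.87 over both days, limma adjusted p = 5.76e-05). Against control it was at 0.20 with shRNA #1 (limma adjusted p = 0.0552) and at 1.07 with shRNA #2. Of all genes 53% were called against control with shRNA #1 and 45.4% with shRNA #2. Aqp7, a glycerol channel, was also higher (0.74).

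Dgat2, which joins the last fatty acid to triglyceride, had 15200 and 13870 reads with shRNA #1 against 8222 and 9358 with shRNA #2 at day 7. At day 11 it had 3787 and 3302 against 2769 and 2659, a difference over both days of -0.54 (SE 0.08, limma adjusted p = 0.000612). Lpl, which frees fatty acids from circulating fat, was at -0.47 (limma adjusted p = 0.00164). Both arms were above control for both genes on both days. Adipoq, the gene of adiponectin, had 8746 and 7936 reads against 5319 and 5727 at day 7 (-0.58, called) and 10980 and 8521 against 13710 and 11030 at day 11 (0.34, limma adjusted p = 0.0825). Its difference between days passed the test (0.91, limma adjusted p = 0.0274), but not when any 1 of the 4 day 7 libraries of the shRNAs was left out (adjusted p up to 0.135). Plin1 and Fabp4 were called lower at day 7 (-0.51 and -0.40) and not at day 11 (-0.08 and -0.10), but their difference between days was not called. At day 7, 7 markers were lower and 2 higher (6.0% and 4.54% of all genes), and the lower count was 3 without shRNA #1 replicate 1 or 2 or shRNA #2 replicate 1.

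**Figure D5:**
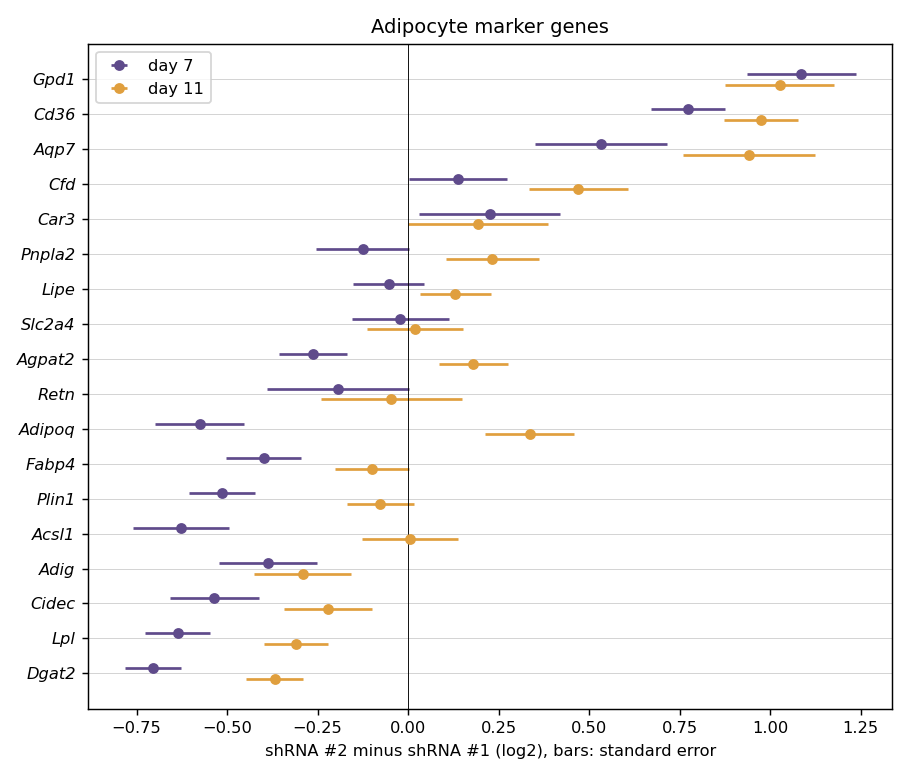
Difference of the 18 adipocyte markers between the arms, shRNA #2 minus shRNA #1 in log2 (x axis), at day 7 (purple) and day 11 (orange), with bars of 1 standard error. Gpd1, Cd36 and Aqp7 lie above 0.5 on both days, Dgat2 and Lpl lie below 0 on both days, and Adipoq goes from -0.58 to 0.34.

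Of 17 adipogenic transcription factors 4 were higher and 2 lower (10.4% and 11.2% of all genes). Pparg was at 0.13 (limma adjusted p = 0.0774), Cebpa at -0.06 (0.794), Cebpb at 0.06 (0.474) and Cebpd at 0.11 (0.38), none called over both days, each adjusted p from limma. At day 11 alone Pparg was called higher (0.21, limma adjusted p = 0.0264). Over both days Pparg was called higher without shRNA #2 day 7 replicate 1 (limma adjusted p = 0.0407) and Cebpa lower without shRNA #1 day 11 replicate 2 (0.0409). The both-day standard errors were 0.049, 0.133, 0.054 and 0.083, and a missed threshold does not show equal levels. Klf5, a factor of early adipogenesis, crossed over: it had 555.1 and 474.5 reads with shRNA #1 and 1078 and 981 with shRNA #2 at day 7, and 620.9 and 701.8 against 378.5 and 472.9 at day 11. It was called in opposite directions on the 2 days (0.95 and -0.60), and the change of -1.55 passed (limma adjusted p = 7.26e-05). Klf15, a later factor raised in fat cells, was lower (-0.41, limma adjusted p = 0.00231), and the sterol sensor Nr1h3 was higher (0.31, limma adjusted p = 0.00919). Of 14 fatty acid synthesis genes, 6 were lower (11.2% of all genes) and none higher, among them Acly (-0.31) and Me1 (-0.27). That count was 2 without shRNA #1 day 11 replicate 1 and 3 without shRNA #1 day 7 replicate 2 or shRNA #2 day 11 replicate 2.

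Of 16 precursor and anti-adipogenic genes 5 were called higher with shRNA #2 (10.4% of all genes) and none lower. Pdgfra, a receptor of fibroblasts and fat cell precursors, had 5343 and 4984 reads with shRNA #1 and 7330 and 6975 with shRNA #2 at day 7, and 6197 and 5285 against 10290 and 9269 at day 11. The difference was 0.60 (SE 0.07, limma adjusted p = 0.000132), and every shRNA library lay below control, whose lowest was 12550. Sox9 (0.55), Gata3 (0.40) and Zfp521 (0.40) were also higher. Dlk1, the precursor marker, was not called (0.05, limma adjusted p = 0.746).

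For the matrix lists, counts over both days stand beside 10.4% of all genes called higher and 11.2% lower. Of 23 matrix glycoprotein and crosslinking genes, 11 were higher and 2 lower, with a median of 0.21. Lum, a keratan sulfate proteoglycan of collagen fibrils, had 98.43 and 75.4 reads with shRNA #1 and 227.6 and 166.6 with shRNA #2 at day 7, and 111.3 and 72.68 against 365.7 and 232.7 at day 11 (1.20, SE 0.17, limma adjusted p = 0.000603). Dpt, a small matrix protein, differed by 1.15 (limma adjusted p = 0.000114) and Postn, a matrix protein of remodelling tissue, by 1.09. Fn1 (-0.32) and Lox (-0.23), the genes of fibronectin and of a collagen crosslinking enzyme, were the 2 called lower. The higher count was 7 without shRNA #1 day 11 replicate 1 or shRNA #2 day 11 replicate 2. In the basement membrane 7 of 15 were higher, among them Col4a1 (0.29) and Col4a2 (0.40), and Nid1 was lower (-0.25). Of 20 proteases and inhibitors 6 were higher and 1 lower, and Mmp14, a membrane collagenase, was at 0.50 (SE 0.08, limma adjusted p = 0.00163).

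Saa3, an acute phase protein made by fat cells, had 570.3 and 768 reads with shRNA #1 and 2069 and 1748 with shRNA #2 at day 7, and 591.3 and 613.2 against 1434 and 1169 at day 11. Its difference was 1.25 (SE 0.12, limma adjusted p = 0.000206). Spp1, osteopontin, an adhesive matrix protein, had 11950 and 11420 against 6838 and 6960 at day 7 (-0.71, limma adjusted p = 7.20e-06). With Spp1 in it, the sum of osteoblast markers at day 7 was 12960 to 13200 reads with shRNA #1 and 7979 to 8288 with shRNA #2, while the bone gene Bglap was at 0 in both shRNA #1 groups. Of the ZBTB family, the class of the target, 4 of 36 genes tested were higher and 2 lower, beside 10.4% and 11.2% of all genes. The calls of Zbtb16, Zbtb46 and Zbtb8a were each lost without shRNA #1 day 7 replicate 2. So they were without shRNA #1 day 11 replicate 2 or shRNA #2 day 11 replicate 2. Zbtb18, a repressor, was at -0.70 (SE 0.09, limma adjusted p = 0.000207). Of 13 genes of the RNA interference machinery 2 were lower and none higher, Ran (-0.33) and Tnrc6a (-0.16), which act in nuclear transport and in silencing, while 11.2% of all genes were lower. Tnrc6a was not called without shRNA #1 day 7 replicate 1, shRNA #1 day 11 replicate 1 or shRNA #2 day 11 replicate 1 (adjusted p up to 0.0613).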

How the data were processed

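RNA-seq was compared between 2 shRNAs against Zbtb9 at days 7 and 11. The authors deposited log2 values per gene and library. Per the submitters' processing notes, TopHat2 2.1.0, Bowtie2 2.2.6, SAMtools 1.3.1 and HTSeq 0.6.1 were used, with no roles given. The genome build, annotation and strand setting are not given in the sources used here. The shape of the deposited log2 values is that of a log transform that draws rare genes towards their mean, which no source names. Undoing it gave read numbers of which 99.3% lay within 0.1 of an integer (20% by chance).

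Values were tested as deposited with limma 3.58.1 (R 4.3.3), with trend and robust empirical Bayes, over genes at 10 or more in at least 4 libraries. p-values were adjusted by Benjamini-Hochberg over all genes tested. The design has shRNA and day, and a fit of 4 group means gives each day and their difference. No count model was fitted as the main test, and voom on the rebuilt reads was an alternative. The method was tested on simulated data. Named genes are Zbtb9, 10 markers, the 12 largest rises and falls whose arms do not overlap on either day with a level of 50 or more in the higher arm, the 5 largest between days and from early to late, and the 2 largest per list and direction. Other list members are named after their values were seen. Members and the 46 lists were chosen with earlier results of these data known. Promoters are from RefSeq (GRCm38.p6). Gene positions and exon overlaps are from GENCODE M21 (GRCm38), which may differ from the authors' build. Reads were not molecules counted with identifiers. Alternatives were filters, scaling, fits and leaving out single libraries. Some genes are not reported here.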

Additional observations from a re-analysis of the deposited data

Results flagged for a closer look

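The difference between the shRNAs changed from day 7 to day 11 by a test of that change (limma adjusted p under 0.05) for these named genes, given as day 11 minus day 7 on the log2 scale. Upward were Oas2 (2.1), Ifit3 (2.02), Oas3 (1.98), Ifit1 (1.92), Rsad2 (1.90), Oasl2 (1.80), Ifit3b (1.73), Ifi44 (1.49), Rtp4 (1.43), Mx2 (1.41), Usp18 (1.40), Ifit1bl2 (1.26) and Dhx58 (1.05), all genes induced by interferon, and Adipoq (0.91). Downward were Cit (-1.64), Klf5 (-1.55), Knstrn (-1.47), Ccnb1 (-1.39), Kif23 (-1.38) and Mki67 (-1.30). All but Adipoq and Klf5 among these belong to interferon response or cell division. They were named for the size of their values or as markers, so this does not describe the 250 genes called. Of these 20 changes, 12 were lost without trend and robust fitting (among them Dhx58, Mki67, Oas2, Oas3 and Rtp4), 6 with no filter on low values, 5 with voom on the rebuilt reads, and 7 in at least 1 of the 8 fits that left out 1 library. The change of Ifit3 was not called without shRNA #2 day 7 replicate 2 or shRNA #1 day 11 replicate 2 (adjusted p up to 0.162), nor was that of Ifit3b (up to 0.154), which was also lost without shRNA #2 day 7 replicate 1. Adipoq (up to 0.135) and Cit (up to 0.0938) were lost without any 1 of the 4 day 7 libraries. Mx2 was lost without shRNA #1 day 7 replicate 1 or either day 7 library of shRNA #2 (up to 0.0608), and Ifi44 without shRNA #2 day 7 replicate 2 (0.0672). Ifit1bl2 was lost in 6 fits (up to 0.22), without any day 7 library or replicate 1 of either shRNA at day 11.

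In normalized reads, 1 of the 4 control libraries of a day stood away from the others for 12 of the named genes, in 13 of 292 gene and day groups compared. Chance marks about 1 in 20 groups. At day 11 Ccnd3 had 4990 against 5480 to 5540, Cit 78.9 against 56.7 to 59.8, Ebf1, a factor of fat cell fate, 1540 against 1380 to 1400, and Ccne2 59.4 against 90.1 to 92.5. Idh3a, a citrate cycle enzyme, had 1180 against 1290 and Lama2, a laminin chain, 20.6 against 26 to 26.6. At day 7 Knstrn had 230 against 322 to 336, Fitm2, a lipid droplet protein, 2490 against 2600 to 2610, and Tsc22d3, a glucocorticoid-induced gene, 9940 against 10900 to 11000. Lrp6, a Wnt coreceptor, had 5390 against 4870 to 4930 and Krt19 54.1 against 15.5 to 19.6. B3gnt6 was marked on both days, with 2.31 against 5.83 to 6.09 and 0.813 against 0.929 to 0.95, levels of a few reads.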

How the results depend on the processing

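No call of a named gene changed direction under the alternatives run. The adipocyte marker median over both days (-0.08) was 0.01 without shRNA #2 day 7 replicate 1. Over both days, 2882 genes were called. The count was 4783 with all 32 libraries in 1 fit, 1861 with day 11 libraries only, and 1969 to 2534 when 1 library was left out. For the change between days, 250 genes were called. That count was 86 with no filter on low values, 39 without trend and robust fitting and 829 with all 32 libraries in 1 fit. Leaving out 1 library gave 89 (without shRNA #2 day 7 replicate 2) to 836 (without shRNA #1 day 11 replicate 1). With the other day 7 libraries left out it was 95 and 113 (shRNA #1 replicates 1 and 2) and 138 (shRNA #2 replicate 1), and without shRNA #2 day 11 replicate 1 it was 126. From early to late, 1180 genes were called, 746 without trend and robust fitting and 885 to 1391 with 1 library left out. The share of calls between days that were upward was 68.0%, and 54.7% with libraries rescaled to the same total. Across genes, deviations of same-numbered libraries correlated by -0.07 to 0.11 over 6 pairs of groups. They included 0.04 (day 7) and 0.10 (day 11) between arms and 0.11 between days in each arm. Such low values do not show whether same-numbered libraries shared a culture or batch. With the replicate number as a block 2426 genes were called over both days, 553 between days and 1420 from early to late. The causes were not tested. With 2 libraries per arm and day, the exact test of Zbtb9 could not go below p = 0.0556.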

Other observations

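Other groups are given beside the 10.4% of all genes called higher and 11.2% called lower over both days, and the 6.0% called lower at day 7. Of 17 hypoxia targets 6 were lower with shRNA #2 and none higher (median -0.14), among them Ankrd37 (-0.37). Of 25 nuclear-encoded respiratory chain subunits 6 were lower, with Cox5a at -0.30 and Cycs at -0.25, and at day 7 9 were lower. These shares were not tested against all genes. The 10 tested transcripts of the mitochondrial genome were not called (median -0.08). Of 18 glycolysis genes 6 were lower, among them Pfkp (-0.30) and Ldha (-0.23). Of 18 circadian clock genes 1 was higher and 4 lower: the repressors Nr1d1 (-0.50) and Nr1d2 (-0.33) were among the lower, and Hlf (0.47), a clock-driven factor, was the higher. Nr1d1 was not called without shRNA #2 day 7 replicate 2 (limma adjusted p = 0.0519), with the replicate block or with day 11 libraries only (up to 0.0841). Ppargc1a, a coactivator of mitochondrial genes, was higher over both days (1.11, limma adjusted p = 0.0285), with 189.9 and 90.84 reads with shRNA #1 and 495.4 and 441 with shRNA #2 at day 11. It was not called in 4 of the 8 fits that left out 1 library.

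B3gnt6, a gene for mucin-type glycan synthesis, had 340 and 701.8 reads with shRNA #1 and 54.55 and 82.8 with shRNA #2 at day 7, and at most 6.085 in day 7 controls. At day 11 it had 14.3 and 10.22 against 2.126 and 5.314.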
